A study of Arabidopsis thaliana with 15 samples.

Results

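Arabidopsis leaves were darkened in 2 ways, and the question taken up here is which genes moved differently between day 3 and day 6 of the 2 treatments. The quantity reported is the change from day 3 to day 6 in individually darkened leaves (IDL) minus the same change in leaves of wholly darkened plants (DP), in log2 units of array intensity. A positive value means that the transcript rose more, or fell less, in IDL than in DP. The contrast was carried by 12 of the 15 Affymetrix arrays of the series, 3 in each of the groups IDL day 6, IDL day 3, DP day 6 and DP day 3, and 16174 genes were tested.

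All plants were Arabidopsis thaliana of the wild type accession Col-0, grown in short days. In IDL, 2 fully expanded leaves of each plant were enclosed in foil-coated covers, and the remaining rosette kept its light and dark cycle. In DP, the entire plant stood in a dark box in the same chamber. The remaining 3 arrays came from leaves in the light at day 0, and each replicate of every group pooled 2 leaves of independent plants taken at noon. These are whole leaves, so fewer cells of a type and less RNA per cell cannot be told apart.

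Darkness stops photosynthetic carbon gain, and a leaf then lives on stored carbon, protein and lipid. An individually shaded leaf on a lit rosette typically yellows and exports its nitrogen and carbon to the rest of the plant, a programme that includes chloroplast dismantling, autophagy and amino acid breakdown. When the whole plant is dark, leaves usually stay green longer and enter a starvation state in which photosynthetic capacity is better retained.

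The array medians lay between 18.31 and 19.56 intensity units, and replicates within a group correlated at 0.983 to 0.989 across genes. Only 1767 of the 16174 genes carry a symbol or a name in the annotation used, so most genes are given by locus code. No detection calls were used, and 104 of the 867 genes called below lay in the lowest quartile of intensity in at least 1 of the 4 darkened groups, where a fold change may understate the true ratio. Of 6 mesophyll marker genes 1 was measured, RCA (rubisco activase), with 539.5 to 679.1 intensity units in IDL at day 6, 515.6 to 584.7 in IDL at day 3, 420.5 to 478.5 in DP at day 6 and 530.0 to 543.4 in DP at day 3. The 3 measured guard cell markers of 9 summed to 75.5 to 85.3 in IDL at day 6, 76.1 to 88.6 in IDL at day 3, 78.0 to 95.4 in DP at day 6 and 100.2 to 105.6 in DP at day 3. Neither list had a member called for the difference of courses. The 1 root marker measured of 5 stayed between 10.1 and 14.4 in the 12 darkened arrays, and no phloem, xylem, epidermis or seed marker was among the genes tested. The part of cell composition in the results was not tested.

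The 2 treatments parted between day 3 and day 6 for 867 genes, 5.36% of those tested (limma, adjusted p under 0.05, two-sided). In 507 of them (3.13% of the genes tested) the change was more positive in IDL and in 360 (2.23%) it was more negative. The differences ran from −2.57 to 4.06 with a median of 0.91 among the positive and −0.82 among the negative ones, against −0.03 over all genes. At least 2-fold differences were seen in 298 genes (1.84%), 213 positive (1.32%) and 85 negative (0.526%), and at least 4-fold differences in 45 positive and 4 negative genes. All 10 differences of 8-fold or more were positive. The positive share of the calls was 58.5%, and it came to 71.9% when each array was centred on its median, 74.7% when centred on the reference genes and 54.4% after quantile normalization. Centring on the reference genes also lifted the median change over all genes to 0.11 in IDL and 0.06 in DP, against −0.04 in IDL and 0.00 in DP in the values as deposited. The 9 reference genes themselves had a median change of −0.12 in IDL and 0.00 in DP. They summed to 933.8 to 1031.7 units in IDL at day 6, against 1231.0 to 1303.6 at day 3. In DP they summed to 1240.1 to 1423.8 units at day 6, against 1353.8 to 1540.6 at day 3.

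Each treatment also had a course of its own, and fewer genes passed the test in DP than in IDL. From day 3 to day 6, 1398 genes changed in IDL (8.64%), of which 779 rose (4.82%) and 619 fell (3.83%). In DP 738 genes changed (4.56%), with 328 rising (2.03%) and 410 falling (2.53%). The balance of rises and falls depended on the scaling, since centring on the reference genes gave 1474 rising and 228 falling genes in IDL and 474 rising and 269 falling genes in DP. The falls in IDL numbered 362 without IDL day 3 replicate 2, 363 without IDL day 6 replicate 1 and 367 without IDL day 6 replicate 2. In DP there were 174 rises and 246 falls without DP day 6 replicate 2, 197 rises and 244 falls without DP day 3 replicate 1, and 218 rises without DP day 3 replicate 2. Over all genes the changes in IDL and in DP correlated at 0.10 across genes, which are not independent replicates.

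**Figure D1:**
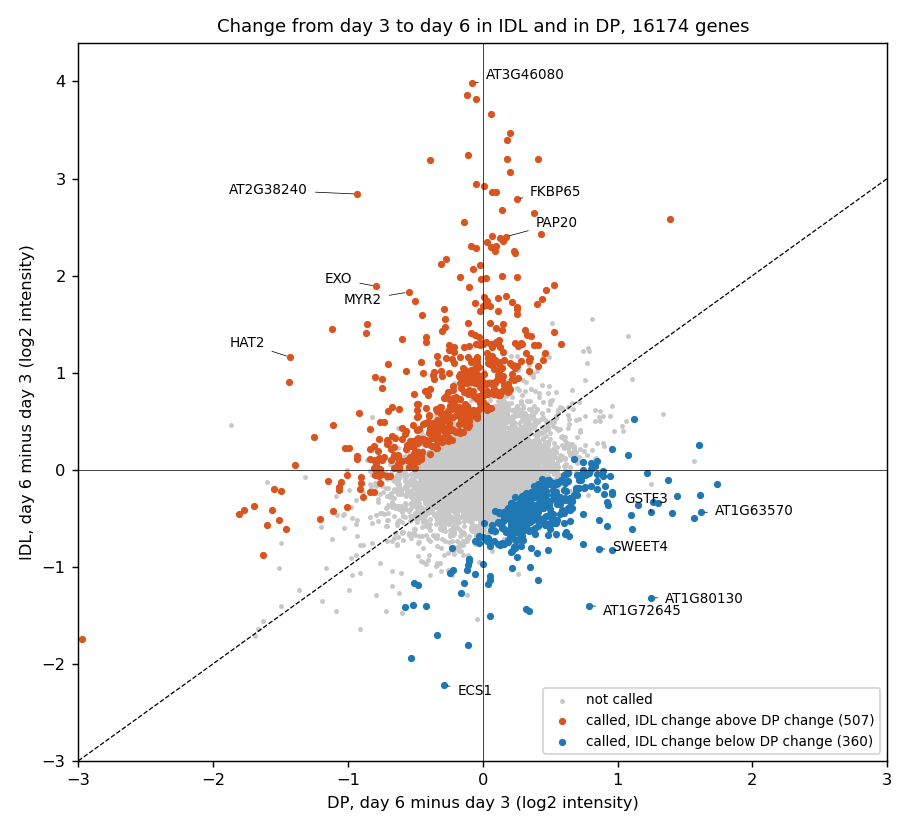
Each point is a gene, with its change from day 3 to day 6 in DP on the horizontal axis and in IDL on the vertical axis, both as differences of log2 intensity (means of 3 arrays). Genes called for the difference of the changes are orange (507, IDL above DP) or blue (360, IDL below DP), the dashed line marks equal change, and the tallest orange points lie near 0 in DP.

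Most of the genes that parted moved in one treatment and not detectably in the other. Of the 507 positive genes, 342 (67.5%) rose in IDL with no called change in DP, with a median change of 0.97 in IDL and −0.06 in DP. Another 93 (18.3%) fell in DP with no called change in IDL, with medians of 0.12 in IDL and −0.70 in DP. In 20 (3.94%) the transcript rose in IDL and fell in DP, 39 had neither change called, 9 fell in both treatments and 4 rose in both. The largest differences belonged to the first class, which held 38 of the 45 positive genes of at least 4-fold and all 10 of at least 8-fold.

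The 360 negative genes were spread more evenly over the classes. A fall in IDL alone was found in 166 genes (46.1%), with median changes of −0.56 in IDL and 0.23 in DP. A rise in DP alone was found in 105 genes (29.2%), with medians of −0.18 in IDL and 0.68 in DP. In 22 (6.11%) the transcript fell in IDL and rose in DP, 62 had neither change called, 4 fell in both and 1 rose in both. Taking both signs, 508 genes moved only in IDL and 198 only in DP. The classes also depended on the scaling. Centring on the reference genes left 60 genes that fell in IDL alone, fewer than the 107 that then rose in DP alone, and 13 that fell in IDL and rose in DP. Centring on the median gave 149 genes that fell in DP alone.

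Some of these class sizes rested on single arrays. The 166 genes that fell in IDL alone numbered 93 without IDL day 3 replicate 2, 99 without IDL day 6 replicate 1 and 104 without IDL day 6 replicate 2. The 93 that fell in DP alone numbered 57 without DP day 6 replicate 2, and the 20 that rose in IDL and fell in DP numbered 13 without DP day 3 replicate 1. The 22 that fell in IDL and rose in DP numbered 9 without DP day 6 replicate 2, 12 without DP day 3 replicate 1, 12 without IDL day 3 replicate 2, 13 without DP day 3 replicate 3, 13 without IDL day 6 replicate 2 and 14 without IDL day 3 replicate 1.

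**Figure D2:**
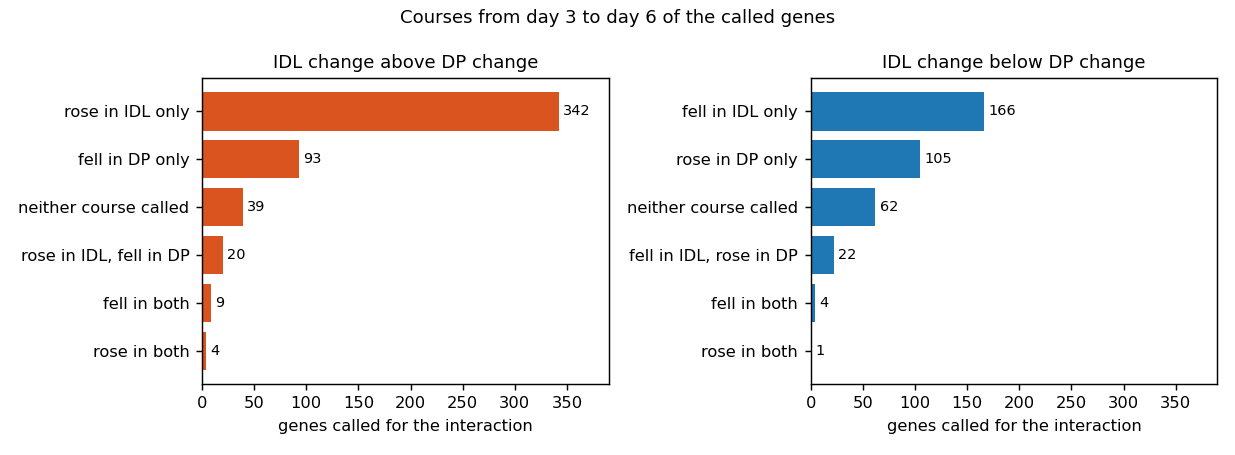
Bars give the number of genes in each course from day 3 to day 6, on the left for the 507 genes whose IDL change was above the DP change and on the right for the 360 genes whose IDL change was below it. A rise in IDL alone (342 genes) and a fall in IDL alone (166 genes) are the longest bars of their panels.

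The gap between IDL and DP was mostly a matter of day 6. For 492 of the 867 genes (56.7%) IDL and DP differed at day 6 and had not differed detectably at day 3. In 231 (26.6%) a gap already called at day 3 had widened by day 6, in 69 (7.96%) a day 3 gap was no longer called at day 6, in 31 (3.58%) it had narrowed, and in 35 (4.04%) it had turned to the other sign. The remaining 9 genes had no called gap on either day. Over all genes, IDL and DP differed in 4699 (29.1%) at day 6 and in 2705 (16.7%) at day 3. The day 6 gaps split into 2450 genes higher in IDL (15.1%) and 2249 lower (13.9%), and the day 3 gaps into 1413 higher (8.74%) and 1292 lower (7.99%).

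The strongest departures were genes near their lowest level everywhere except in IDL at day 6. AT3G46080 had 378, 364 and 394 intensity units in IDL at day 6, against 21.1, 31.4 and 20.9 in IDL at day 3. In DP it had 20.8, 22.3 and 22.2 units at day 6, against 23.4, 26 and 20.2 at day 3. The 3 IDL day 6 arrays stood 15.7-fold above IDL day 3 while the DP arrays of both days overlapped, and the difference of the courses was 4.06 ± 0.19 (SE of the fit, adjusted p = 4.33e-11). Its neighbour AT3G46070 rose by 2.39 in IDL with a DP change of 0.13 that did not pass (difference 2.27 ± 0.27, adjusted p = 1.18e-05). The nearby ZAT7, which encodes a zinc finger protein of the C2H2 type linked to stress responses, also rose in IDL alone. ZAT7 had 42.4, 32.9 and 33.5 units in IDL at day 6, against 9.39, 7.42 and 10.5 in IDL at day 3, and between 8.99 and 10.5 in all 6 DP arrays. Its difference was 1.86 ± 0.19 (adjusted p = 2.17e-06), and its level was within the lowest quartile in the other 3 darkened groups.

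Other loci without a name followed the same pattern. AT4G33930 had 609, 274 and 268 units in IDL at day 6, against 17.6, 32.8 and 25.4 in IDL at day 3, with 17.2 to 37 in the 6 DP arrays (difference 3.98 ± 0.42, adjusted p = 2.33e-06). AT1G33760 had 178, 145 and 136 units in IDL at day 6, against 8.43, 14.4 and 10.2 in IDL at day 3, with 12.4 to 14.5 in DP (3.87 ± 0.23, adjusted p = 7.55e-10). In both, every IDL day 6 array stood several times above all other darkened arrays. AT5G64870 (3.60 ± 0.21), AT2G29500 (3.57 ± 0.20), AT1G16022 (3.35 ± 0.17) and AT4G29780 (2.91 ± 0.19) behaved in the same way, with DP changes between −0.39 and 0.06 that did not pass the test. AT2G38240 had 75.2, 128 and 122 units in IDL at day 6, against 11.1, 16.7 and 17.3 in IDL at day 3. DP leaves showed 13.9, 13.6 and 14.7 units at day 6, against 22.6, 68.1 and 12.6 at day 3, so that DP day 3 replicate 2 was far above its group. The difference of 3.78 ± 0.53 (adjusted p = 8.58e-05) was 3.10 without that array.

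**Figure D3:**
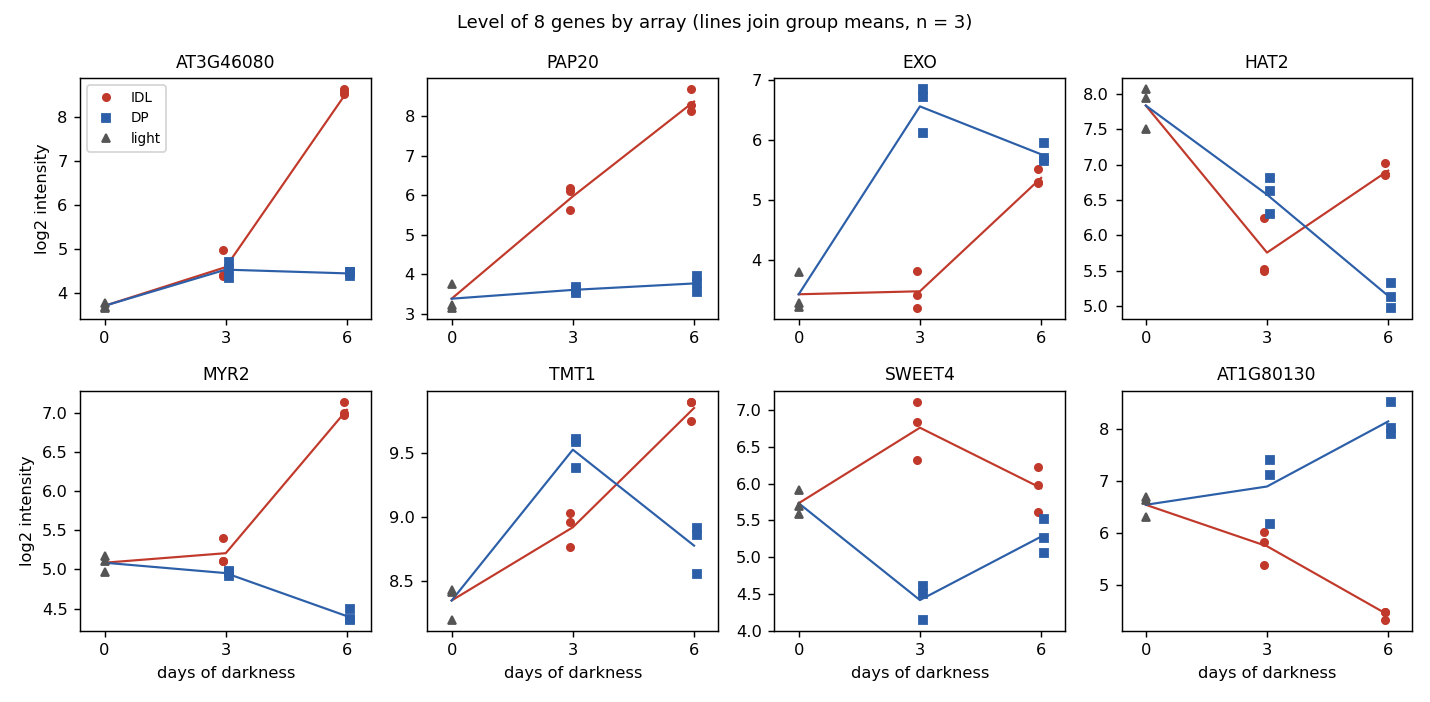
Log2 intensity of 8 genes on each array against days of darkness, with IDL as red circles, DP as blue squares, light leaves at day 0 as grey triangles, and lines through the group means of 3 arrays. AT3G46080 and PAP20 separate upward in IDL, EXO, HAT2, MYR2 and TMT1 rise in IDL and fall in DP after day 3, and SWEET4 and AT1G80130 do the reverse.

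Protein-folding genes were among the transcripts that rose in IDL alone. FKBP65 (AT5G48570, also ROF2), a heat-inducible peptidyl-prolyl isomerase, had 207, 175 and 169 units in IDL at day 6, against 23.7, 21.7 and 35.6 in IDL at day 3. The DP arrays read 19.2, 17.8 and 18.9 units at day 6, against 15, 12.3 and 20.6 at day 3. It was 6.93-fold higher at day 6 than at day 3 in IDL, its DP arrays overlapped, and the difference was 2.54 ± 0.25 (adjusted p = 8.57e-07). Hsp70-2, a member of the Hsp70 chaperone family, had 63.8, 45.8 and 43.8 units in IDL at day 6, against 12.2, 11.9 and 14.1 in IDL at day 3. Its DP values were 10.9, 11.1 and 12 units at day 6, against 9.74, 8.86 and 9.92 at day 3 (difference 1.73 ± 0.20, adjusted p = 6.71e-06). The DP change of 0.25 did not pass the test. The other 3 measured genes of the list of heat shock proteins and chaperones, CLPB2, HSP93-III and BIP1, had differences of −0.29, −0.26 and 0.34 that did not pass. Hsp70-2 was thus the 1 called gene of that list, against 3.13% of all genes for positive differences. The list does not hold every gene of this kind. FKBP65 is outside it, as is HSA32 (AT4G21320), which was called with a difference of 1.23.

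The lists of phosphate, calcium and jasmonate genes each held 1 called member, among 3, 7 and 2 measured genes, against 3.13% of all genes for positive differences. PAP20, a purple acid phosphatase, had 313, 282 and 409 units in IDL at day 6, against 72.9, 49.4 and 68.6 in IDL at day 3, and 11.6 to 15.6 in the 6 DP arrays. Its gap to DP was 4.60 at day 6 and already 2.36 at day 3, both called, and the difference of 2.23 ± 0.24 had an adjusted p of 4.26e-06. CML38, a calmodulin-like calcium sensor, had 65.3, 70.4 and 56 units in IDL at day 6, against 17.6, 21.4 and 21.7 in IDL at day 3, with 17.3 to 25.3 in DP (1.95 ± 0.27, adjusted p = 6.7e-05). All 3 IDL day 6 arrays of each gene stood above every other darkened array. Of the other phosphate genes, PAP85 had a difference of −0.93 that did not pass (adjusted p = 0.105) and PS2 one of 0.00. The other 6 calcium sensors measured did not pass, CML41 having the most negative difference at −1.22 (adjusted p = 0.0539).

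JRG21, a jasmonate-responsive oxygenase gene, had 31.9, 52.8 and 47.8 units in IDL at day 6, against 10.6, 16.2 and 12.6 in IDL at day 3. Leaves of darkened plants had 11.2, 13.8 and 12.3 units at day 6, against 14.8, 34.4 and 10.7 at day 3. The difference was 2.24 ± 0.39 (adjusted p = 0.000941), and 1.76 without DP day 3 replicate 2, which was the high one. The class V chitinase gene ChiC had 36.7, 25.9 and 32 units in IDL at day 6, against 17.7, 18.1 and 16.6 in IDL at day 3. For DP the arrays gave 18.1, 14.2 and 17.7 units at day 6, against 32.5, 39.2 and 17.2 at day 3, again with replicate 2 highest. The difference of 1.59 ± 0.31 (adjusted p = 0.00271) was 1.35 without that array. ChiC was the 1 called member of 34 defence and disease resistance genes, against 3.13% of all genes for positive differences. Most of the 34 are small defensin-like peptides, and 33 did not pass (list median −0.02). FAMT, a methyltransferase acting on farnesoic acid, had 35.6, 48 and 27.2 units in IDL at day 6, against 15.3, 17.3 and 11.2 in IDL at day 3, and 10.2 to 18.5 in DP (1.74 ± 0.30, adjusted p = 0.000941). In light leaves it had 219 to 372 units, so the day 6 rise in IDL left it far below the level before darkening.

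In 42 genes both changes were called and ran in opposite directions, and several of the largest carry names. EXO (EXORDIUM), a brassinosteroid-induced cell wall protein that promotes leaf cell expansion, had 39.6, 46.1 and 38.8 units in IDL at day 6, against 10.7, 9.26 and 14.1 in IDL at day 3. In DP it had 61.8, 51.8 and 50.1 units at day 6, against 115, 69.8 and 105 at day 3, where replicate 2 was lowest. It rose by 1.89 in IDL and fell by 0.79 in DP, both called, and the difference was 2.68 ± 0.26 (adjusted p = 8.57e-07). IDL minus DP was −0.39 at day 6, which was not called (adjusted p = 0.124), against a called −3.07 at day 3.

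HAT2, an auxin-inducible homeobox-leucine zipper factor, had 129.7, 116 and 117 units in IDL at day 6, against 46.2, 75.5 and 45.2 in IDL at day 3. DP leaves showed 40, 35 and 31.5 units at day 6, against 112, 98.4 and 78.8 at day 3. IDL minus DP was 1.77 at day 6, against −0.82 at day 3, both called and of opposite sign, with a difference of 2.59 ± 0.25 (adjusted p = 9.78e-07). MYR2, a MYB-related factor known to restrain flowering, had 125, 128 and 141 units in IDL at day 6, against 34.6, 34.4 and 42.4 in IDL at day 3. The DP arrays read 20.5, 20.6 and 22.5 units at day 6, against 31.2, 31.7 and 30.1 at day 3. The groups did not overlap within either treatment, and the difference was 2.38 ± 0.16 (adjusted p = 3.32e-09). AT5G28237, which has no name in the annotation, had 579.7, 681 and 572 units in IDL at day 6, against 254, 158 and 274 in IDL at day 3. Its DP values were 31.4, 22.6 and 26 units at day 6, against 52.2, 73.7 and 49 at day 3, which gave a difference of 2.57 ± 0.26 (adjusted p = 1.27e-06).

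A pair of carbohydrate genes took the same opposed course. TMT1, which loads sugars into the vacuole, had 956, 862 and 956 units in IDL at day 6, against 522, 499 and 435 in IDL at day 3. Leaves of darkened plants had 483, 376 and 463 units at day 6, against 668, 767 and 781 at day 3. IDL was above DP at day 6 (gap 1.08) and below it at day 3 (gap −0.61), both called, and the difference was 1.68 ± 0.17 (adjusted p = 1.94e-06). DPE1, the plastid disproportionating enzyme that recycles short glucans during starch breakdown, had 79.7, 81.1 and 83.7 units in IDL at day 6, against 43.2, 30.7 and 41.9 in IDL at day 3. For DP the arrays gave 43.3, 55.4 and 48.4 units at day 6, against 86, 75.8 and 76.9 at day 3 (difference 1.80 ± 0.20, adjusted p = 4.26e-06). All darkened arrays stayed below the 196 to 259.9 units of light leaves.

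The sugar transporter gene SWEET4 went the opposite way. It had 63, 49.1 and 75 units in IDL at day 6, against 139, 80.3 and 115 in IDL at day 3. In DP it had 33.2, 46 and 38.4 units at day 6, against 22.6, 24.3 and 17.7 at day 3. The groups did not overlap in either treatment, the gap narrowed to 0.66 at day 6, against 2.35 at day 3, and the difference was −1.69 ± 0.26 (adjusted p = 0.000314). SWEET4 was the 1 called member of a list of 20 genes of starch metabolism, sugar transport and the SnRK1 energy sensor, against 5.36% of all genes called. TMT1 and DPE1 are not in that list, most members of which belong to the SWEET family, and the list median was −0.03.

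The largest negative differences belonged to unnamed loci. AT1G80130 had 20.1, 22.2 and 22.2 units in IDL at day 6, against 42, 56.8 and 64.5 in IDL at day 3. DP leaves showed 238, 367 and 257 units at day 6, against 138, 72 and 168 at day 3, where replicate 2 was lowest. IDL minus DP was −3.72 at day 6, against −1.15 at day 3, both called, a difference of −2.57 ± 0.32 (adjusted p = 2.42e-05). AT1G72645 had 92.3, 69.4 and 113 units in IDL at day 6, against 199, 341 and 194 in IDL at day 3. The DP arrays read 933, 1022 and 973 units at day 6, against 553, 576 and 563 at day 3 (−2.19 ± 0.25, adjusted p = 7.29e-06). Both fell in IDL and rose in DP, as did AT1G61750, with a smaller difference of −1.71 ± 0.24.

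For AT3G54630 and AT1G63570 the difference lay mostly in DP. AT3G54630 had 21.3, 23.8 and 20.6 units in IDL at day 6, against 26.6, 33.6 and 33.2 in IDL at day 3. Its DP values were 147, 148 and 148 units at day 6, against 42.5, 85.6 and 33.9 at day 3 (−2.07 ± 0.30, adjusted p = 0.000117). DP day 3 replicate 2 was again far above its group. AT1G63570 had 11, 11.7 and 10.6 units in IDL at day 6, against 12.5, 17.1 and 15.8 in IDL at day 3. Leaves of darkened plants had 172, 213 and 150.3 units at day 6, against 67.4, 40.3 and 70.2 at day 3 (−2.05 ± 0.26, adjusted p = 2.36e-05). The IDL changes of −0.50 and −0.44 did not pass the test, and the DP changes of 1.57 and 1.62 did. In both genes the arrays of the 2 days did not overlap in either treatment.

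Among named genes with negative differences, ECS1, a cell wall protein known from work on disease resistance, had the largest. It had 32.3, 48.8 and 29.2 units in IDL at day 6, against 144, 283 and 115 in IDL at day 3. For DP the arrays gave 213, 192 and 198 units at day 6, against 174, 506 and 169 at day 3, and DP day 3 replicate 2 was again far above its group. The difference of −1.93 ± 0.47 (adjusted p = 0.0162) did not pass the test without DP day 3 replicate 1 (−1.68), DP day 3 replicate 3 (−1.66) or IDL day 3 replicate 2 (−1.55), nor with an intensity trend and a robust prior (adjusted p = 0.117).

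Regulatory and signalling genes followed with smaller sizes. PXL2 (AT4G28650), a receptor-like kinase related to the vascular receptor PXY, had 41.7, 52.3 and 54 units in IDL at day 6, against 77.9, 111 and 88.6 in IDL at day 3, and 113 to 156 in the 6 DP arrays (−1.15 ± 0.19, adjusted p = 0.000582). AGL104, a MADS box factor best known from pollen, had 57.4, 53 and 50.6 units in IDL at day 6, against 126, 148 and 116 in IDL at day 3, and 22.7 to 34.3 in DP (−1.11 ± 0.23, adjusted p = 0.00495). Both fell in IDL with no overlap between its days and did not pass the test in DP. TGH (TOUGH), an RNA-binding protein that assists microRNA processing, and DAYSLEEPER, a factor derived from a transposase and needed for normal growth, each had a difference of −0.99 (SE 0.17 and 0.18) and fell in IDL by 0.60 and 0.71. SIS, a salt-induced serine-rich protein, had a difference of −1.02 ± 0.21.

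The metabolic gene PMEAMT, a phosphoethanolamine methyltransferase of phosphocholine synthesis, fell by 0.97 in IDL and had a DP change of 0.00, with a difference of −0.96 ± 0.20 (adjusted p = 0.00444). GTR2, which moves glucosinolates across the plasma membrane, had 332, 356 and 338 units in IDL at day 6, against 531, 547 and 606 in IDL at day 3. In DP it had 161, 116 and 123 units at day 6, against 121, 138 and 85.5 at day 3, so the DP days overlapped and those of IDL did not (−0.94 ± 0.21, adjusted p = 0.0093).

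**Figure D4:**
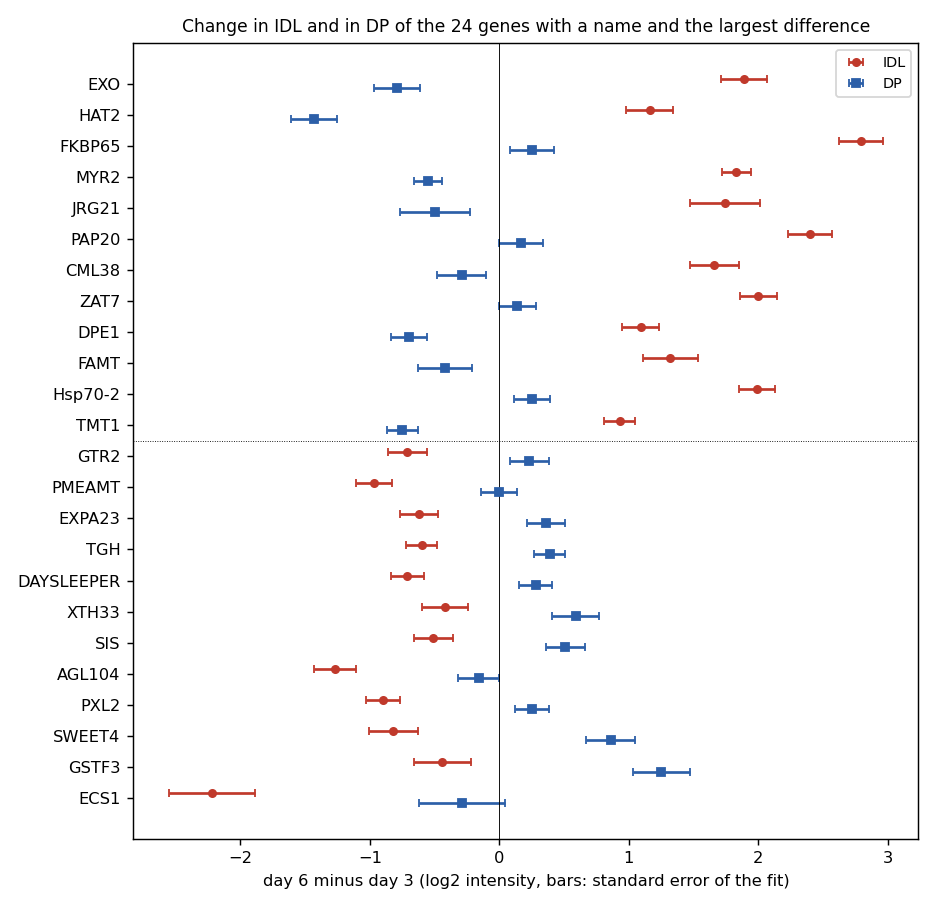
For the 12 most positive and 12 most negative differences among genes with a name, red circles give the change from day 3 to day 6 in IDL and blue squares that in DP, in log2 intensity with the standard error of the fit as bars. In the upper 12 genes the red circle lies right of the blue square, with FKBP65 farthest right at 2.79 in IDL, and in the lower 12 it lies left of it, with ECS1 farthest left at −2.22 in IDL.

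The few antenna and photosystem transcripts that parted declined more steeply in DP than in IDL over these days, and 8 of 44 loci entered were measured. Of 8 measured subunits of the light-harvesting antenna and photosystems, 3 were called for the difference, all positive, against 3.13% of all genes, and 5 were not. The list median was 0.34, from medians of −0.35 in IDL and −0.65 in DP. In IDL 3 of the 8 fell, against 3.83% of all genes, and in DP 5 fell, against 2.53%. LHB1B2, a light-harvesting protein of photosystem II, had 308, 297 and 352 units in IDL at day 6, against 453, 471 and 489 in IDL at day 3. DP leaves showed 195, 160.1 and 160.3 units at day 6, against 528, 545 and 483 at day 3. It fell in both treatments, by 0.57 in IDL and by 1.60 in DP, and the difference was 1.03 ± 0.16 (adjusted p = 0.000313).

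PSBW, a small subunit of photosystem II, had 377, 365 and 413 units in IDL at day 6, against 589.5, 459 and 507 in IDL at day 3. The DP arrays read 201, 227 and 216 units at day 6, against 574, 671 and 664 at day 3 (1.14 ± 0.21, adjusted p = 0.00186). PSAE-1, a stromal subunit of photosystem I, had 400.5, 394 and 328 units in IDL at day 6, against 666, 536 and 432 in IDL at day 3. Its DP values were 332, 228 and 226 units at day 6, against 769.8, 660.1 and 782 at day 3 (0.99 ± 0.23, adjusted p = 0.011). For all 3 genes IDL was above DP at day 6, the groups were not called apart at day 3, and every darkened array was below the light leaves. The antenna gene LHCB4.2 had a difference of 0.61 that did not pass (adjusted p = 0.112), LHCB4.1, PSAN and PSBY lay between −0.10 and 0.07, and LHCB4.3 had a difference of −0.44 in the other direction (adjusted p = 0.284).

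The other chloroplast lists gave no call. None of 6 Calvin cycle and photorespiration genes (median −0.24) and none of 5 genes of chlorophyll synthesis and breakdown (median 0.05) passed. Of the loci entered, 6 of 29 were measured in the first list and 5 of 28 in the second. Of the 6 Calvin cycle and photorespiration genes, 3 fell in IDL, against 3.83% of all genes. In DP none fell, against 2.53%, and 1 rose, against 2.03%. CHLM, a methyltransferase of chlorophyll synthesis, came closest with −0.65 (adjusted p = 0.0618), and it fell by 0.98 in IDL while its DP change of −0.34 did not pass. NOL, a chlorophyll b reductase of chlorophyll breakdown, had a difference of 0.26 (adjusted p = 0.455).

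Breakdown of nitrogen compounds supplied 2 called genes of 7, both positive, against 3.13% of all genes. Both fell in DP and had no called change in IDL. ALN, allantoinase of purine breakdown, had 96, 99.9 and 103 units in IDL at day 6, against 103, 95.6 and 78.9 in IDL at day 3. Leaves of darkened plants had 41.2, 42.4 and 35.7 units at day 6, against 77.4, 73 and 75.6 at day 3 (1.04 ± 0.17, adjusted p = 0.000386). AT5G38710, entered in the list as a proline dehydrogenase locus, had 266, 302 and 325 units in IDL at day 6, against 239, 265 and 213 in IDL at day 3. For DP the arrays gave 27.2, 32.6 and 24.3 units at day 6, against 43.9, 57.3 and 43 at day 3 (1.09 ± 0.21, adjusted p = 0.0021). IDL was thus far above DP on both days, and above the 21.7 to 28.7 units of light leaves. The list median was −0.05, and none of 8 genes of branched chain amino acid breakdown passed (median −0.19), although MCCB, a subunit of methylcrotonyl-CoA carboxylase in leucine breakdown, fell by 0.79 in IDL.

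In autophagy, the engulfment of cell contents for delivery to the vacuole, 1 of 16 measured genes was called, against 3.13% of all genes for positive differences, and the list median was 0.17. ATG8H, an ATG8 protein that is attached to the autophagosome membrane, had 152, 165 and 191 units in IDL at day 6, against 105, 117 and 81.1 in IDL at day 3. In DP it had 50.9, 45.5 and 36.9 units at day 6, against 50, 56.2 and 53.3 at day 3. The IDL days did not overlap while the DP days did, and the difference was 1.02 ± 0.20 (adjusted p = 0.00326). The other ATG8 genes, ATG8B to ATG8G as measured, had differences of −0.05 to 0.56 that did not pass, the largest being ATG8G (adjusted p = 0.157).

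No difference of courses was called among the few classical senescence genes measured. Of 35 loci entered in the list of senescence regulators and markers, 6 were measured. None of the 6 passed, against 5.36% of all genes called. So few genes cannot decide whether senescence genes part less often than others. Among them were EIN3, a transcription factor of ethylene signalling (−0.35), WRKY6 (0.00), SAG101 (0.35) and WRKY22 (0.57, adjusted p = 0.106). SAG29, also in the list, lay close to the lower quartile of intensity in the darkened groups. None of 43 measured genes of a list of proteases and nucleases passed (median 0.03). Most of these are serine carboxypeptidase-like genes, many of them dim, and no nuclease is among them. Of the loci entered in that list by code, 7 of 16 were measured. No call was made either among 7 respiratory genes, mostly of the tricarboxylic acid cycle (median 0.29), 7 WRKY factors (median 0.01) or 26 cytochrome P450 genes (median −0.03). Among 35 proteasome and ubiquitin genes 1 was called, against 3.13% of all genes for positive differences. It was UBC29 at 0.77 ± 0.22 (adjusted p = 0.0438). That call was lost without any 1 of 10 darkened arrays, with values of 0.64 to 0.84, the exceptions being IDL day 3 replicate 1 and DP day 6 replicate 3, and it was also lost after quantile normalization. A failed test does not show that these genes took the same course, since the median standard error of a difference was 0.18.

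Auxin genes were called in 2 of 23 cases, both positive, against 3.13% of all genes, and the list median was −0.09. IAA29, an Aux/IAA repressor of auxin signalling that is induced by shade, had 9.59, 9.52 and 11 units in IDL at day 6, against 10.5, 10.6 and 13.5 in IDL at day 3. DP leaves showed 11.7, 10.3 and 13.8 units at day 6, against 41.3, 26.6 and 38.3 at day 3, a fall by 1.55, and the difference was 1.35 ± 0.23 (adjusted p = 0.000744). Light leaves had 34 to 46 units, so that IDL had left that level by day 3. The IDL means of IAA29 were 3.52 log2 units at day 3 and 3.32 at day 6. The lower quartiles of those groups were 3.51 and 3.46, so IAA29 had little room to fall further in IDL. Whether this bears on its difference was not tested. GH3.3, an enzyme that conjugates auxin to amino acids, had 20.5, 28.1 and 27.7 units in IDL at day 6, against 15.7, 18.2 and 15.2 in IDL at day 3. The DP arrays read 15.9, 15.8 and 15.3 units at day 6, against 29.3, 26 and 18.3 at day 3 (1.25 ± 0.31, adjusted p = 0.0181). Neither of its changes was called alone, and its difference was not called without DP day 3 replicate 1 (1.11) or IDL day 6 replicate 2 (1.17).

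Among 96 cell wall genes 3 were called positive and 4 negative, 7 of 96 against 5.36% of all genes, and the median was −0.16. EXO, described above, had the largest difference of the list. CSLC04, a xyloglucan glucan synthase of the primary wall, had 18.6, 23.3 and 21.5 units in IDL at day 6, against 15.9, 16.6 and 12.7 in IDL at day 3. Its DP values were 119.9, 133 and 125 units at day 6, against 238, 156 and 248 at day 3 (1.23 ± 0.24, adjusted p = 0.00311), so DP stayed far above IDL on both days while the gap narrowed. XTH33, a xyloglucan-modifying enzyme, had 11.8, 11.9 and 12.1 units in IDL at day 6, against 16.6, 15.6 and 15.8 in IDL at day 3. Leaves of darkened plants had 114, 84.8 and 75.9 units at day 6, against 56.4, 54.1 and 70.4 at day 3 (−1.01 ± 0.25, adjusted p = 0.0171), with neither change called alone. The expansin gene EXPA23 had 9.72, 11.8 and 12.5 units in IDL at day 6, against 19.6, 15.2 and 17.4 in IDL at day 3, and its difference was −0.98 ± 0.21 (adjusted p = 0.00618).

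The remaining cell wall calls were small and rested on few arrays. TBL28 and TBL20, of a family involved in wall acetylation, had differences of 0.75 and −0.59, and EXLB2 (AT4G30380), an expansin-like gene, one of −0.71. The call for TBL28 was lost without IDL day 6 replicate 1, IDL day 3 replicate 1 or DP day 3 replicate 2 (0.67 to 0.69). That for EXLB2 was lost without replicate 1 or 2 of IDL day 6, replicate 1 or 3 of IDL day 3, replicate 3 of DP day 6 or replicate 1 of DP day 3 (−0.69 to −0.60). That for TBL20 was lost without any 1 of 8 darkened arrays (−0.60 to −0.49), the exceptions being IDL day 6 replicate 2, IDL day 3 replicate 1, DP day 6 replicate 1 and DP day 3 replicate 3. TBL20 was also not called after centring on the median (−0.52) or the reference genes (−0.51) or after quantile normalization (−0.51), nor EXLB2 after centring on the reference genes (−0.63).

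Glutathione transferases, which conjugate and detoxify reactive compounds, gave 2 positive and 1 negative call among 15 genes, against 5.36% of all genes called (median −0.09). GSTL3 had 827, 816 and 889.9 units in IDL at day 6, against 949.6, 823 and 845 in IDL at day 3. For DP the arrays gave 234, 173 and 165 units at day 6, against 407, 438 and 308 at day 3 (0.97 ± 0.20, adjusted p = 0.0043). GSTF3 had 17.9, 16.9 and 14 units in IDL at day 6, against 22.8, 22.5 and 20.6 in IDL at day 3. In DP it had 76.6, 102 and 67.4 units at day 6, against 30.5, 56.6 and 22.8 at day 3, with replicate 2 of that group again highest (−1.69 ± 0.31, adjusted p = 0.00186, and −2.05 without it). GSTL3 fell in DP and GSTF3 rose in DP, and neither changed detectably in IDL. ATGSTF13 had a difference of 1.12 ± 0.28 (adjusted p = 0.0176) that was not called without DP day 3 replicate 2 (0.99), DP day 3 replicate 3 (0.99), IDL day 3 replicate 2 (1.03) or IDL day 6 replicate 2 (0.86).

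Among 33 genes listed by symbol or name for ER bodies and glucosinolates, 3 were positive and 1, GTR2, was negative, against 5.36% of all genes called (median 0.03). The 3 positive ones are beta-glucosidase genes, and their part in ER bodies or glucosinolate metabolism was not checked. The beta-glucosidase genes BGLU25 and BGLU40 rose in IDL by 0.77 and 0.68, with differences of 1.18 ± 0.25 (adjusted p = 0.00489) and 1.15 ± 0.24 (adjusted p = 0.00587). BGLU40 had 65.1, 56.6 and 79.9 units in IDL at day 6, against 45.1, 38.1 and 41.8 in IDL at day 3, and 21.3, 28.5 and 20.8 units in DP at day 6, against 36, 30.3 and 31.3 in DP at day 3. BGLU44, which fell in DP, had a difference of 0.83 whose call was lost without any 1 of 8 darkened arrays (0.68 to 0.82), the exceptions being IDL day 6 replicate 3, IDL day 3 replicate 1, DP day 6 replicate 1 and DP day 3 replicate 3. Of 52 glycosyltransferases 1 was called, UGT73B3, against 3.13% of all genes for positive differences. UGT73B3 had 40.5, 50.8 and 38.5 units in IDL at day 6, against 25, 19.5 and 16.2 in IDL at day 3, and 17.4 to 20.5 in DP (1.15 ± 0.20, adjusted p = 0.000966).

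Cold and dehydration genes gave 2 positive calls among 13, against 3.13% of all genes (median 0.26). KIN2, a small hydrophilic protein induced by cold and abscisic acid, had 545, 649 and 755 units in IDL at day 6, against 549, 604 and 546 in IDL at day 3. DP leaves showed 932, 967 and 1070 units at day 6, against 1648, 1761 and 1675 at day 3 (0.96 ± 0.17, adjusted p = 0.00133). All darkened arrays were below the 2234 to 2733 units of light leaves, and DP stayed above IDL on both days. The dehydrin gene LTI30 had a difference of 0.83 ± 0.21 whose call was lost without replicate 2 or 3 of IDL day 6, replicate 1 of IDL day 3, replicate 3 of DP day 6 or replicate 3 of DP day 3 (0.65 to 0.80). COR15A, with a difference of 0.96 as well, did not pass (adjusted p = 0.0711), nor did COR27, with −0.71 (adjusted p = 0.106), which rose by 0.69 in DP. DREB2C, a factor that activates dehydration and heat responses, rose by 1.05 in IDL and had a difference of 0.81 ± 0.16 (adjusted p = 0.00365). Among 21 bZIP factors 1 was called, against 3.13% of all genes for positive differences. It was BZIP53, which acts in reprogramming of amino acid metabolism under low energy (0.62 ± 0.18, adjusted p = 0.0433). Its call was lost in each of the 12 fits that left out a darkened array (0.55 to 0.66) and after quantile normalization (0.58).

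**Figure D5:**
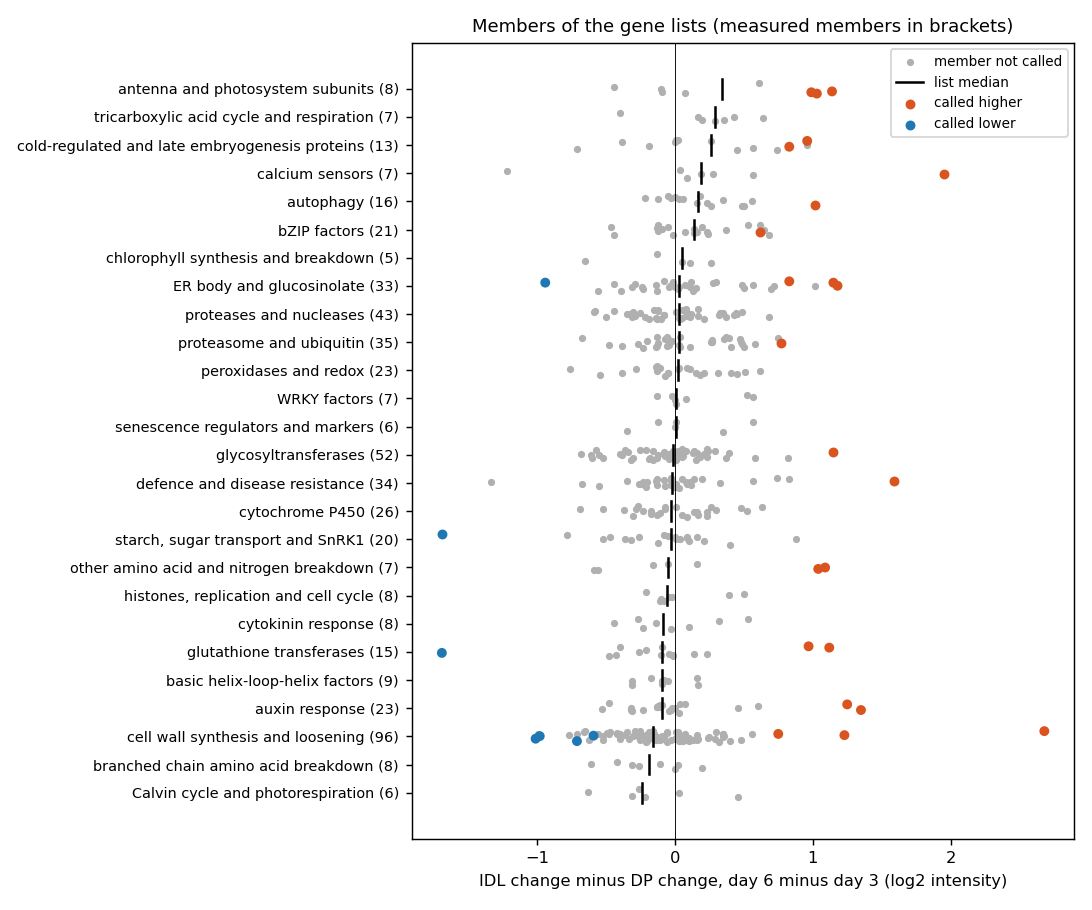
Each row is a gene list with at least 5 measured members, the number in brackets giving how many, and each point is a member's IDL change minus DP change from day 3 to day 6 in log2 intensity. Called members are orange (positive) or blue (negative), grey points were not called, black bars are list medians, and most members of every list lie within 1 of 0.

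Some of the genes that parted are neighbours on a chromosome. In the order of the RefSeq annotation, 10017 pairs of adjacent genes had both members tested, 963 had at least 1 member called and 46 (0.459%) had both. Of these 46 pairs, 41 moved in the same direction, 25 of them positive and 16 negative, and 5 in opposite directions. Among single genes 5.36% were called, and 58.5% of the calls were positive. Some such pairs would thus arise without regard to position, and how many was not computed. The pairs of the same direction include DPE1 (1.80) beside AT5G64870 (3.60), ATG8H (1.02) beside AT3G06410 (0.94), and AT2G38240 (3.78) beside AT2G38250 (1.61). Neighbours of the same direction formed 6 runs of 3 genes, 4 positive and 2 negative. The positive runs include AT4G15660, AT4G15670 and AT4G15680 (2.14, 2.00 and 3.27) and AT2G32190, AT2G32200 and AT2G32210 (2.21, 2.79 and 1.07). The negative runs were AT1G36050, AT1G36060 and AT1G36070 (−0.97, −1.76 and −1.03) and AT2G07806, AT2G07738 and AT2G07795 (−1.07, −1.09 and −0.95). Adjacent copies can share probe sequence, and whether that bears on these pairs was not tested.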

How the data were processed

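Biotin-labelled RNA was hybridised to 15 Affymetrix arrays. The deposited table holds a linear intensity for each probe set on every array, made with the R package oligo per the submitters' processing notes. Which background correction, normalization and summary method were applied is not given in the sources used here. Log2 was taken first. Of 26676 probe sets, 16179 were annotated with exactly 1 gene, 588 with several and 9909 with none. The brightest probe set stood for each of 5 genes with more than 1, which left 16174 genes, and names came from the array annotation and the RefSeq table of assembly TAIR10.1 (16161 probe sets matched).

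A mean per group was fitted to all 15 arrays with limma 3.58.1 in R 4.3.3 (lmFit, eBayes, prior of 10.52 degrees of freedom), and the contrast was (IDL day 6 minus IDL day 3) minus (DP day 6 minus DP day 3). Genes were called at a two-sided Benjamini-Hochberg adjusted p under 0.05 over all genes. The procedure was tested on simulated data. The number of arrays limits the precision.

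Named genes are the 12 largest differences of each sign with a name, the 4 largest of each sign without, the 4 largest opposed genes of each sign, the 6 smallest adjusted p and up to 4 called members of each list and direction, 63 in all. Of the list loci entered by code, 92 of 375 were measured. The contrast, the lists and their members were chosen with earlier results of these data known. Genes of a list that were not called, and the neighbouring loci, were picked after their values were seen. Promoter motifs were not analysed here.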

Additional observations from a re-analysis of the deposited data

Results flagged for a closer look

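Every gene named here was picked out because its change from day 3 to day 6 differed between IDL and DP by a test of the difference itself (limma, adjusted p under 0.05 over all genes, log2 scale), as did 867 genes in all. In descending order the positive differences began with 4.06 for AT3G46080, 3.98 for AT4G33930, 3.87 for AT1G33760, 3.78 for AT2G38240 and 3.60 for AT5G64870. Then came 3.57 for AT2G29500, 3.35 for AT1G16022, 2.91 for AT4G29780, 2.68 for EXO and 2.59 for HAT2. These were followed by 2.57 for AT5G28237, 2.54 for FKBP65 (AT5G48570), 2.38 for MYR2, 2.24 for JRG21 and 2.23 for PAP20. Next were 1.95 for CML38, 1.86 for ZAT7, 1.80 for DPE1, 1.74 for FAMT and 1.73 for Hsp70-2. Further down stood 1.68 for TMT1, 1.59 for ChiC, 1.35 for IAA29, 1.25 for GH3.3 and 1.23 for CSLC04. Below these lay 1.18 for BGLU25, 1.15 for UGT73B3, 1.15 for BGLU40, 1.14 for PSBW and 1.12 for ATGSTF13. The list went on with 1.09 for AT5G38710, 1.04 for ALN, 1.03 for LHB1B2, 1.02 for ATG8H and 0.99 for PSAE-1. Smaller values were 0.97 for GSTL3, 0.96 for KIN2, 0.83 for BGLU44, 0.83 for LTI30 and 0.81 for DREB2C. At the lower end were 0.77 for UBC29, 0.75 for TBL28 and 0.62 for BZIP53.

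The negative differences began with −2.57 for AT1G80130, −2.19 for AT1G72645, −2.07 for AT3G54630, −2.05 for AT1G63570 and −1.93 for ECS1. After these came −1.71 for AT1G61750, −1.69 for SWEET4, −1.69 for GSTF3, −1.15 for PXL2 (AT4G28650) and −1.11 for AGL104. Lesser negative values were −1.02 for SIS, −1.01 for XTH33, −0.99 for TGH, −0.99 for DAYSLEEPER and −0.98 for EXPA23. Nearer to 0 lay −0.96 for PMEAMT, −0.94 for GTR2, −0.71 for EXLB2 (AT4G30380), −0.65 for GAPC2 and −0.59 for TBL20.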

How the results depend on the processing

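At an adjusted p under 0.01, 426 genes were called for the difference (277 positive, 149 negative), and a 2-fold minimum left 298 (213 and 85). Taking all probe sets, also those without a single gene, gave 1852 calls (1112 and 740), with 1507 rising and 1257 falling in IDL and 663 and 972 in DP. Centring on the reference genes left 226 negative calls and gave 1474 genes rising and 228 falling in IDL and 269 falling in DP. At the stricter threshold 494 rose and 249 fell in IDL, and 125 rose and 191 fell in DP. Leaving out 1 array gave 655 to 922 calls (404 to 533 positive, 251 to 389 negative), 556 to 794 rising and 362 to 658 falling in IDL, and 174 to 350 rising and 244 to 457 falling in DP. The counts of falling genes in IDL were lowest without IDL day 3 replicate 2 (362), IDL day 6 replicate 1 (363) and IDL day 6 replicate 2 (367), and those of DP were lowest without DP day 6 replicate 2 (174 rising, 246 falling) and DP day 3 replicate 1 (197 and 244), with 218 rising without DP day 3 replicate 2. Without IDL day 3 replicate 2, 244 of the 867 calls were lost. The other settings tried moved the number called by under 1.5 times. None of the 63 named genes changed sign under any setting, and 52 kept the call in every fit that left out 1 array. The replicate number as a block gave 873 calls (505 positive, 368 negative) and cost UBC29 its call (adjusted p = 0.0581). Same-numbered arrays of different groups correlated at −0.078 to 0.094 in their deviations, and 7 of 15 arrays correlated best with their own number. Among darkened arrays, same-numbered pairs lay at 0.018 to 0.094 for replicate 1, −0.039 to 0.033 for replicate 2 and 0.041 to 0.071 for replicate 3. Pairs of replicate 1 with replicate 3 lay at −0.103 to −0.026. The main fit did not pair the samples, although same-numbered darkened arrays of replicates 1 and 3 shared a weak part of their deviations. The planned count of promoter motifs was not run. No detection calls were used, so signal over background limits the dim genes.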

Other observations

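GAPC2 is a glycolytic glyceraldehyde-3-phosphate dehydrogenase often used as a reference gene. Among 9 reference genes it was the 1 called, against 2.23% of all genes for negative differences. It had 409, 401 and 364 units in IDL at day 6, against 588, 679.8 and 609 in IDL at day 3. The DP arrays had 866, 868 and 694 units at day 6, against 731, 922 and 821 at day 3, and the difference was −0.65 ± 0.18 (adjusted p = 0.0391). That call was lost without any 1 of 9 darkened arrays (−0.68 to −0.56), the exceptions being IDL day 3 replicate 1, DP day 6 replicate 3 and DP day 3 replicate 2. It was also lost after centring on the median (−0.58) and after centring on the reference genes (−0.56). The last setting centres GAPC2 partly on itself, so it is not an independent check.

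Several other lists gave no called gene for the difference. These were 23 genes of peroxidases and redox enzymes, 8 of histones, replication and the cell cycle, 9 basic helix-loop-helix factors and 8 cytokinin response genes.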
